A study of Mus musculus with 32 samples.

Results

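The data described here set cultured mouse aortic cells that lack Oct4 and received POVPC in 1% oxygen against the same cells given vehicle in normoxia. The 3 libraries titled KO POVPC Hypoxia and the 3 titled KO Vehicle Normoxia were taken by those titles and are called treated and untreated below, 6 of the 24 culture libraries and of the 32 samples of the series. All cells of both groups were Oct4 -/- on a C57BL/6 background, from a single primary line that is labelled as smooth muscle. Wild-type (WT) cells, also a single line, were sequenced under the same conditions, so that genotype and line cannot be told apart. The remaining KO groups used below, POVPC in normoxia and vehicle in hypoxia, had 3 libraries each. The dose of POVPC, the hours of exposure and the oxygen level of normoxia are not given in the sources used here. The triplicates are not described as separate cultures, so p-values measure only the spread between these libraries, which may be technical.

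POVPC is an oxidized phospholipid that forms in oxidized low-density lipoprotein and accumulates in atherosclerotic plaques, and it is used in culture to move smooth muscle cells away from their contractile state. Cells sense low oxygen through prolyl hydroxylases, which in air mark the alpha subunits of hypoxia-inducible factors (HIFs) for destruction. When oxygen is scarce the subunits persist, pair with ARNT, bind short promoter and enhancer elements and raise genes of glucose uptake, glycolysis, vessel growth and mitochondrial turnover. Atherosclerotic plaques are known to hold both stimuli. Counts are reads assigned to exons, given as CPM, the counts of a gene scaled to a common library total and for library composition, and a call means an adjusted p under 0.05 in edgeR's quasi-likelihood test over 14496 genes. Fold changes are log2 values, KO POVPC hypoxia over KO vehicle normoxia. The ± beside a fold change is a standard error worked back from the F statistic of its test. Other values are means ± SD of 3 libraries. In bulk RNA, fewer cells of a kind and less RNA per cell cannot be told apart.

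The library totals of the compared groups lay between 19754346 and 25597434 counts. Pou5f1, which encodes OCT4, had 0 counts in all 6 libraries, and it reached no more than 2 counts in any of the 24 culture libraries, WT included, so its counts cannot check the genotype labels here. The ribosomal precursor Rn45s took 3.75% to 8.31% of the counts in KO POVPC hypoxia libraries and 1.29% to 8.02% in KO vehicle normoxia libraries. KO POVPC hypoxia replicate 1 and KO vehicle normoxia replicate 3 had the largest shares within their groups. Without these 2 libraries 9009 genes were called, against 9851 with them. Some libraries of the other comparisons were poorer. KO vehicle hypoxia replicate 3 had 11618385 counts, and WT POVPC hypoxia replicates 1 and 2 had 13663755 and 8063121. Their alignments to several places, per assigned one, were 8.07, 5.79 and 9.24, against 0.793 to 3.88 in the compared groups. The smooth muscle label was checked against its markers. Cnn1, Myh11 and Myocd, which define contractile smooth muscle, averaged 0.205, 0.557 and 0.117 CPM in KO POVPC hypoxia libraries and 0.223, 0.243 and 0.0342 CPM in KO vehicle normoxia libraries. Scaled by exon length, Acta2, the smooth muscle actin, had 15.4 CPM per kb in KO POVPC hypoxia and 32.8 CPM per kb in KO vehicle normoxia, whereas Dcn, a marker of adventitial fibroblasts, had 187 and 1430 CPM per kb. The other listed smooth muscle markers were present in untreated libraries: Smtn averaged 88.1, Itga8 14.2, Tagln 4.25 and Lmod1 2.88 CPM. In treated libraries they averaged 21.2, 0.145, 7.74 and 1.69 CPM. As list sums, untreated libraries held 141 to 197 CPM of smooth muscle markers and 3893 to 4510 CPM of adventitial fibroblast markers. Dcn alone averaged 2990 CPM of the latter sum. Untreated WT libraries held 343 to 399 and 4737 to 4791 CPM of the same lists. The low Cnn1, Myh11 and Myocd thus go against a contractile smooth muscle label, and the cells are called KO cells from here on. Several defining markers of other types were near 0: Emr1 and Ptprc of macrophages and Cdh5 of endothelium reached at most 4 counts in any of the 6 libraries, and Tie1, Cd3e and Epcam had 0. Others of the same lists were present: Cd14 averaged 8.06 CPM in treated and 14.3 CPM in untreated libraries, Cd68 2.66 and 1.69 CPM, Kdr 0.264 and 3.64 CPM and Cdh1, of epithelium, 3.6 and 6.82 CPM. Summed over its list, the macrophage markers (4 of 8 tested) held 10.4 to 13.6 CPM in treated and 15.7 to 18.4 CPM in untreated libraries, and the endothelial markers (4 of 7) 1.87 to 2.66 and 3.54 to 4.56 CPM. Single members did not all follow these sums: 2 macrophage markers were called higher and 1 lower, and 1 endothelial marker each way. Csf1r averaged 1.28 CPM in treated and 0.52 CPM in untreated libraries, and Itgam, not tested, 0.412 and 0 CPM. Pecam1 averaged 0.659 and 0.316 CPM, Vwf 0.466 and 0.201 CPM and Tek 0.917 and 0.0317 CPM. The epithelial markers (3 of 6) held 11.6 to 13.9 and 6.56 to 8.28 CPM, with Krt8 and Krt18 called higher, and the lymphocyte markers (1 of 5) 0.407 to 1.02 and 0.102 to 0.279 CPM. Their part in the results was not tested.

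The joint treatment changed most of the measured transcriptome. Of the 14496 genes tested, 9851 (68%) were called, 5021 higher (34.6%) and 4830 lower (33.3%), and 4148 (28.6%) differed by at least 2-fold. More genes fell by 2-fold than rose, 2415 (16.7%) against 1733 (12%). At 8-fold the counts were 329 higher and 459 lower, and at 32-fold they were 90 and 92. For 9959 genes (68.7%) the libraries of the groups did not overlap, with treated libraries above in 5083 (35.1%) and below in 4876 (33.6%). Among the 12 KO libraries the first principal component held 77.7% of the variance, and it separated every hypoxic from every normoxic library. Since most genes passed the test, a single call says little here, and the accounts below rest on the size of the changes. Counts of list members below are to be read beside the shares over all genes, 34.6% called higher and 33.3% lower.

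**Figure D1:**
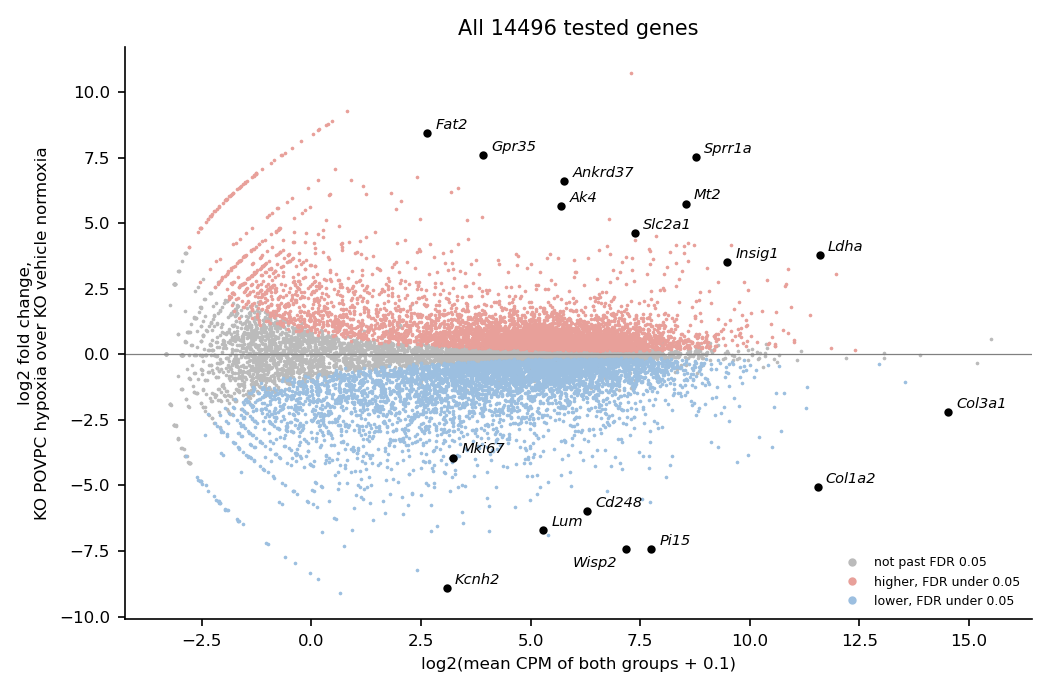
Each point is 1 of 14496 genes, with the log2 of the mean CPM of both groups plus 0.1 on the horizontal axis and the log2 fold change, KO POVPC hypoxia over KO vehicle normoxia, on the vertical axis. Red points were higher and blue points lower at an adjusted p under 0.05, grey points did not pass, and named genes include Ankrd37 at 6.60 and Pi15 at -7.43. The curved streaks at the left are genes with few or no counts in either group, whose fitted values depend on the prior count.

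Glucose uptake and glycolysis rose almost as a block. Of 22 genes in the list, 18 were called higher, all 18 by at least 2-fold, 2 were lower and 2 did not pass, with a median of 3.12 against 0.02 over all genes tested. Summed over the list, these genes held 24630 to 26080 CPM in KO POVPC hypoxia libraries, against 2697 to 3206 CPM in KO vehicle normoxia libraries. Slc2a1, the main glucose importer of most cultured cells (chr4:118781350-118809934 in mm9), had 329, 345 and 288 CPM in the KO POVPC hypoxia libraries, against 11.7, 14.7 and 12.4 CPM in the KO vehicle normoxia libraries. All treated libraries stood far above all untreated ones, and the log2 fold change was 4.63 ± 0.10 (adjusted p = 6.31e-25). Ldha, which turns pyruvate into lactate, had 5670, 5950 and 5710 CPM in the KO POVPC hypoxia libraries, against 471, 417 and 366 CPM in the KO vehicle normoxia libraries, a change of 3.79 ± 0.10. Its treated libraries differed little among themselves. Hk2, the inducible hexokinase, stood at 201 ± 18 CPM in KO POVPC hypoxia and 11.3 ± 1.8 CPM in KO vehicle normoxia (4.14 ± 0.14). Pdk1, a pyruvate dehydrogenase kinase, changed by 3.05 ± 0.08, and Slc16a3, a lactate exporter, by 3.93 ± 0.20.

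Within that block the isozymes did not move alike. The liver and platelet forms of phosphofructokinase, Pfkl and Pfkp, rose by 4.26 ± 0.13 and 3.95 ± 0.10. Pfkm, the muscle form, had 17.9, 17.9 and 13.2 CPM in the KO POVPC hypoxia libraries, against 101, 114 and 106 CPM in the KO vehicle normoxia libraries. Every treated library was below every untreated one, a change of -2.71 ± 0.14 (adjusted p = 1.42e-14). Among the enolases Eno2, the neuronal form, fell by 1.18 ± 0.13. The neuronal glucose carrier Slc2a3 was at 0.262 ± 0.0881 CPM in KO POVPC hypoxia and 0.488 ± 0.26 CPM in KO vehicle normoxia, and Pfkfb4 changed by 0.27 ± 0.14, and neither passed. Gapdh (47.4 ± 0.729 and 3.36 ± 0.949 CPM, treated and untreated) and Eno1 (0.806 ± 0.213 and 0.136 ± 0.0502 CPM) were called higher. Both have near-identical copies elsewhere in the genome, so their counts are uncertain.

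**Figure D2:**
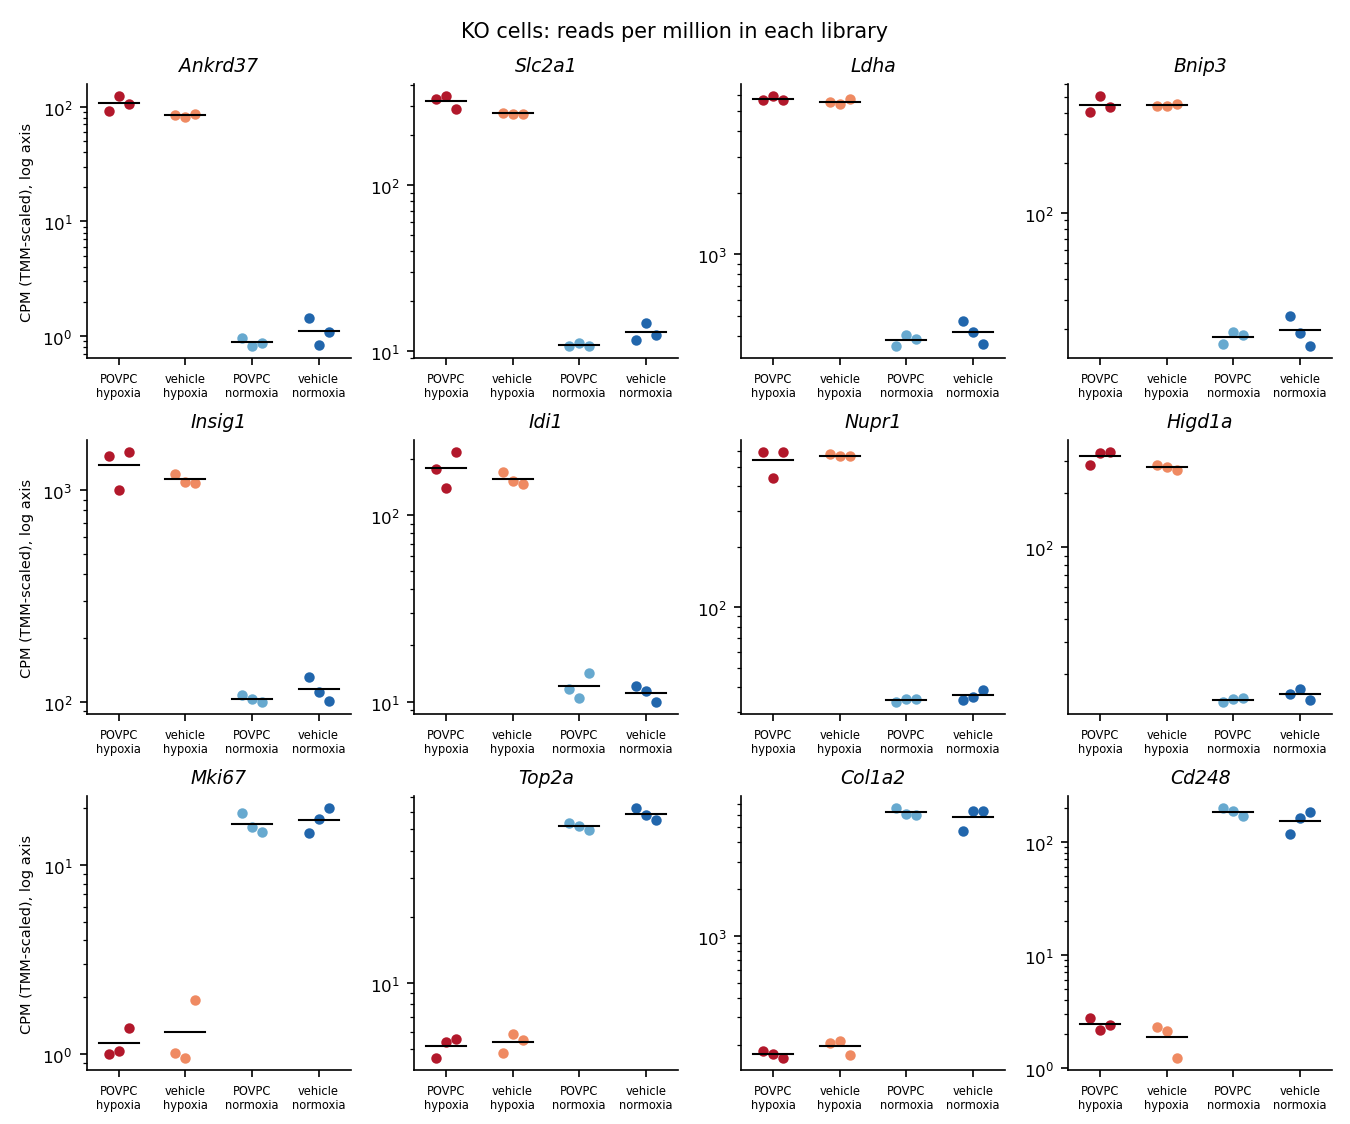
Each panel shows 1 gene, with points for the 3 libraries of each KO group and a bar at their mean, as CPM on a log axis. The hypoxic groups lie together and apart from the normoxic groups in every panel: Ankrd37 to Higd1a were higher and Mki67 to Cd248 lower under POVPC plus hypoxia than under vehicle in normoxia.

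The other HIF targets followed, with exceptions. Of 28, 21 were called higher, 20 of them by at least 2-fold, 5 were lower and 2 did not pass, with a median of 2.28. Ankrd37 (chr8:47082262-47085204 in mm9), a small ankyrin repeat protein and a direct HIF target, had 91.9, 124 and 106 CPM in the KO POVPC hypoxia libraries, against 1.44, 0.833 and 1.08 CPM in the KO vehicle normoxia libraries, which is 97-fold (6.60 ± 0.18, adjusted p = 1.58e-21). Ak4, a mitochondrial adenylate kinase, had 106, 101 and 97.6 CPM in the KO POVPC hypoxia libraries, against 1.95, 1.84 and 2.23 CPM in the KO vehicle normoxia libraries (5.65 ± 0.13). Bnip3, which marks mitochondria for removal, had 405, 505 and 435 CPM in the KO POVPC hypoxia libraries, against 24, 19 and 15.8 CPM in the KO vehicle normoxia libraries (4.52 ± 0.11). In all 3 genes the groups stood far apart, and the spread within a group was small beside the gap. Higd1a and Ero1l, which act in respiratory supercomplexes and in disulfide formation, rose by 4.36 ± 0.09 and 3.71 ± 0.09. Vegfa, the main angiogenic ligand, rose less, by 1.42 ± 0.08, to 153 ± 7.54 CPM in treated cells, against 57.2 ± 3.38 CPM in untreated cells.

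Several genes that hypoxia raises in other cells went down, stayed low or were not called. Car12, a membrane carbonic anhydrase, had 0.415, 0.181 and 0.178 CPM in the KO POVPC hypoxia libraries, against 12.1, 9.38 and 11.1 CPM in the KO vehicle normoxia libraries, a fall to a level near that of a few counts (-5.35 ± 0.40). Angptl4, an inhibitor of lipoprotein lipase, fell by 1.78 ± 0.15, Ppp1r3c, a glycogen-targeting subunit, by 1.33 ± 0.12, Stc2 by 0.72 ± 0.13 and the lysyl hydroxylase Plod2 by 0.56 ± 0.07. Car9, a widely used hypoxia marker, averaged 1.88 ± 0.918 CPM in treated and 1.61 ± 0.289 CPM in untreated cells and was not called (0.21 ± 0.40). Loxl2, a lysyl oxidase relative, was high in both groups, at 749 ± 102 CPM in treated and 683 ± 53.3 CPM in untreated cells, and was not called either (0.13 ± 0.10).

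The oxygen sensors themselves were among the responders. Egln3, a prolyl hydroxylase whose gene is itself HIF-driven, had 78.2, 93.5 and 71.2 CPM in the KO POVPC hypoxia libraries, against 4.97, 6.75 and 5.1 CPM in the KO vehicle normoxia libraries (3.85 ± 0.11), and Egln1, the main oxygen sensor, rose by 3.33 ± 0.09 to 502 ± 18 CPM, against 49.9 ± 4.56 CPM in untreated cells. Egln2 and Vhl, the ubiquitin ligase subunit that recognises hydroxylated HIF, rose by 0.60 ± 0.08 and 0.70 ± 0.09. Hif1a transcript was lower, with 279, 304 and 260 CPM in the KO POVPC hypoxia libraries, against 561, 532 and 579 CPM in the KO vehicle normoxia libraries, and all treated libraries were below all untreated ones (-0.99 ± 0.07, adjusted p = 1.43e-12). Arnt, the shared partner subunit, fell by 0.50 ± 0.09 and Arnt2 by 1.61 ± 0.15. Epas1, which encodes HIF-2 alpha, was low in both groups (2.91 ± 0.567 and 2.45 ± 0.197 CPM) and was not called.

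The promoters of the strongest HIF-list responders are printed to show the hypoxia response core in its place. They are RefSeq windows of the GRCm38.p6 build, 250 bases before to 50 bases after the annotated start, 5′ to 3′ on the strand of the gene. Capitals mark each ACGTG or GCGTG on either strand (on the opposite strand these read CACGT or CACGC). Ankrd37 lies at chr8:45999801-46000100 on the minus strand, Ak4 at chr4:101419039-101419338 on the plus strand (the first of its 4 windows), Slc2a1 at chr4:119108495-119108794 on the plus strand and Bnip3 at chr7:138909457-138909756 on the minus strand.
Ankrd37: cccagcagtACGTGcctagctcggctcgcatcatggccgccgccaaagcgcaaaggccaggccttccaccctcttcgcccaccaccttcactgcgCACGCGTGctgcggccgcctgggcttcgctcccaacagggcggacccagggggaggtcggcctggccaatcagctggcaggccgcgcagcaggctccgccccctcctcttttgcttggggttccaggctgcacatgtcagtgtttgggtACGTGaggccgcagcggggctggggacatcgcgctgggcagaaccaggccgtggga
Ak4: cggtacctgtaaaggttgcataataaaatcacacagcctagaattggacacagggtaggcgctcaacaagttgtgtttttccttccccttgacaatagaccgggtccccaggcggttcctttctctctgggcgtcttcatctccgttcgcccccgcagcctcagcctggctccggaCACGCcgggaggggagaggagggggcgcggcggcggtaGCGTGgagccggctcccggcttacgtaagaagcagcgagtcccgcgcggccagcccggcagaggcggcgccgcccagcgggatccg
Slc2a1: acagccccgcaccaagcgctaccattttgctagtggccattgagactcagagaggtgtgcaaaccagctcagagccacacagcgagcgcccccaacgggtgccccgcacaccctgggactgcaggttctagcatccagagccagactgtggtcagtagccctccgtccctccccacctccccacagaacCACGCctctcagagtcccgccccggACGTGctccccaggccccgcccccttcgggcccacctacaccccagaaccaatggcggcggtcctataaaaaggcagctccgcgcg
Bnip3: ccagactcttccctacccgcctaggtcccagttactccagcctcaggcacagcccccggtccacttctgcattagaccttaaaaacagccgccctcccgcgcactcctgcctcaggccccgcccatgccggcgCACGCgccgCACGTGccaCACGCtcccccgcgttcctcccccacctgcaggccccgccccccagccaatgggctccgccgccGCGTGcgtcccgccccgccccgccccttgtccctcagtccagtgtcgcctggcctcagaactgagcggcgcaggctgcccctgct
The Bnip3 window held 2 matches to ACGTG and 3 to GCGTG, counting both strands, and the Ankrd37 window held 2 of each. In Bnip3 the ACGTG matches are the 2 readings of a single CACGTG palindrome.

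Over whole lists, at least 1 window of the gene held ACGTG for 12 of 18 glycolysis members that rose (66.7%) and for 11 of 16 other HIF targets that rose and had a window (68.8%). Of the 14496 genes tested, 10035 matched a window by symbol, and 28.4% of these held it. GCGTG was held by 61.1% and 87.5% of the same members, against 54.6% of the tested genes. Among all tested genes that rose by at least 2-fold, 32.1% of 1119 held ACGTG, against 21.7% of 1678 genes that fell by at least 2-fold. For comparison, 3 of the 13 cholesterol genes with a window held ACGTG (23.1%) and 3 of the 19 matrix genes (15.8%). These shares describe letters in a short window and were not tested.

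Oxidative phosphorylation moved little in comparison. Of 27 subunit genes tested, 5 were called higher and 11 lower, none of them by 2-fold, and the median was -0.11. The shares over all genes were 34.6% higher and 33.3% lower. Sdhc, of complex II, fell by 0.88 ± 0.09. Cox5a, of the terminal oxidase, rose by 0.67 ± 0.09, and Cycs, cytochrome c, by 0.77 ± 0.16. Sdhc had 107, 121 and 108 CPM in the KO POVPC hypoxia libraries, against 238, 209 and 174 CPM in the KO vehicle normoxia libraries, with KO vehicle normoxia replicate 3 the lowest of its group.

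Every tested gene of cholesterol synthesis and uptake rose. All 21 were called higher, all 21 by at least 2-fold, with a median of 2.89, beside 34.6% of all genes called higher. The list summed to 8490 to 12190 CPM in KO POVPC hypoxia libraries, against 1220 to 1447 CPM in KO vehicle normoxia libraries. Insig1 (chr5:28397952-28405202 in mm9), which holds the sterol sensor in the endoplasmic reticulum, had 1440, 997 and 1510 CPM in the KO POVPC hypoxia libraries, against 131, 111 and 101 CPM in the KO vehicle normoxia libraries (3.52 ± 0.13, adjusted p = 2.09e-17). Replicate 2 was the lowest of the treated libraries for Insig1, and still far above every untreated library. Lss, which closes the sterol ring, rose by 4.17 ± 0.13, Hsd17b7 by 4.14 ± 0.14 and Idi1, the isopentenyl isomerase, by 4.00 ± 0.14. Srebf2, which encodes the factor that drives the pathway, rose by 1.39 ± 0.13. KO vehicle hypoxia libraries were at 1119 ± 65.3 CPM for Insig1 and KO POVPC normoxia libraries at 104 ± 4.35 CPM, beside 1316 ± 278 CPM under both stimuli.

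Genes of cholesterol export went the other way in part. Abca1, the transporter that passes cholesterol to apolipoprotein A-I, had 30.4, 31.8 and 26.8 CPM in the KO POVPC hypoxia libraries, against 56.2, 60.9 and 76.4 CPM in the KO vehicle normoxia libraries (-1.12 ± 0.13), with no overlap between the groups. Apoe fell by 1.25 ± 0.19, Pltp, the phospholipid transfer protein, by 2.00 ± 0.08 and Mylip, a ubiquitin ligase, by 1.01 ± 0.09. Over the 16 tested genes of lipid efflux, uptake and storage, 5 were higher and 7 lower. Beside the 34.6% higher and 33.3% lower of all genes, these counts say little about the list. Olr1, the endothelial-type receptor for oxidized low-density lipoprotein, had 3.61, 3.07 and 3.29 CPM in treated libraries and 0 counts in all 3 untreated libraries, at least 74.9-fold higher, with the untreated group set to a minimum of 3 counts in all. Plin2, a lipid droplet coat protein, rose by 0.87 ± 0.08.

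**Figure D3:**
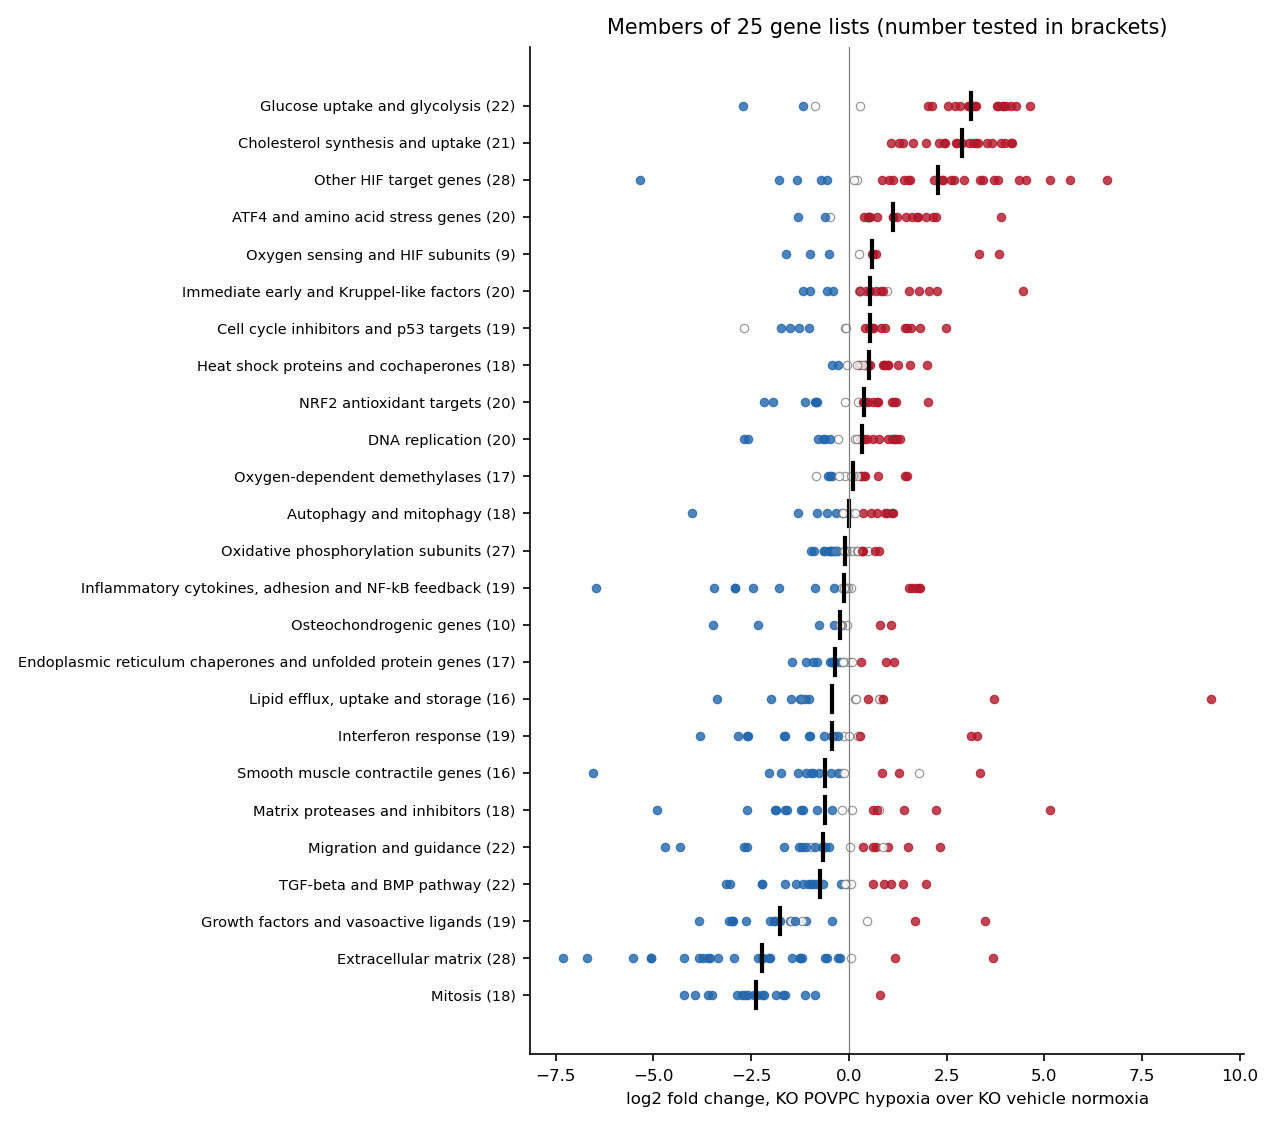
Each row is a gene list, each point a tested member and each black bar the median of the list, with the log2 fold change of KO POVPC hypoxia over KO vehicle normoxia on the horizontal axis. Red points were called higher, blue points lower, and open points did not pass. Among these 25 lists, which leave out the cell type markers, the glycolysis and cholesterol lists have the highest medians (3.12 and 2.89) and the matrix and mitosis lists the lowest (-2.22 and -2.39). The point at 9.27 in the lipid list is Olr1, which had 0 counts in untreated libraries, so that its fitted value depends on the prior count.

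Mitotic genes fell, and replication genes were mixed. Of 18 mitosis genes, 17 were called lower, 16 of them by at least 2-fold, and 1 was higher, with a median of -2.39, beside 33.3% of all genes called lower. Mki67 (chr7:142881471-142908062 in mm9), the proliferation antigen, had 0.997, 1.04 and 1.38 CPM in the KO POVPC hypoxia libraries, against 14.8, 17.5 and 20.1 CPM in the KO vehicle normoxia libraries (-3.94 ± 0.22, adjusted p = 2.26e-15). Top2a, the mitotic topoisomerase, had 4.57, 5.38 and 5.6 CPM in the KO POVPC hypoxia libraries, against 62.4, 57.7 and 55.1 CPM in the KO vehicle normoxia libraries (-3.49 ± 0.12). Cdk1, the mitotic kinase, stood at 1.14 ± 0.19 CPM in treated and 14 ± 2.91 CPM in untreated cells (-3.61 ± 0.22). The treated libraries were far below the untreated ones for all 3 genes. Foxm1, a factor that drives mitotic genes, was the exception, at 7.11 ± 1.84 and 4.12 ± 1.35 CPM (0.78 ± 0.22), with overlapping libraries.

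Of 20 replication genes, 11 were higher and 6 lower, with a median of 0.34. Mcm7, of the replicative helicase, had 101, 103 and 110 CPM in the KO POVPC hypoxia libraries, against 45.8, 46.5 and 46.2 CPM in the KO vehicle normoxia libraries (1.18 ± 0.07), and Pcna, the sliding clamp, rose by 1.32 ± 0.09. Ccne1, the cyclin of S-phase entry, fell by 2.68 ± 0.24 and Rrm2, of ribonucleotide reductase, by 2.59 ± 0.28. Among cell cycle inhibitors and p53 targets, 12 of 19 were higher and 4 lower. Ccng1 had 2850, 3180 and 3130 CPM in the KO POVPC hypoxia libraries, against 953, 842 and 793 CPM in the KO vehicle normoxia libraries (1.82 ± 0.07), and Mdm2, the p53 ligase, rose by 1.59 ± 0.07. Cdkn1a, which encodes p21, rose by 0.41 ± 0.09, whereas Cdkn1b, which encodes p27, fell by 1.02 ± 0.07. Gadd45b, a stress-induced growth arrest gene, rose by 2.49 ± 0.10.

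Genes of amino acid stress rose, and chaperones of the endoplasmic reticulum were more often lower. Of 20 genes driven by ATF4 or amino acid shortage, 17 were called higher and 2 lower, with a median of 1.13. Nupr1, a stress-induced chromatin protein, had 592, 440 and 589 CPM in the KO POVPC hypoxia libraries, against 34.5, 35.8 and 38.9 CPM in the KO vehicle normoxia libraries (3.89 ± 0.11). Atf4 itself rose by 1.47 ± 0.07, Atf3 by 2.23 ± 0.11 and Asns, asparagine synthetase, by 2.15 ± 0.09. Of 17 chaperones and unfolded protein genes of the endoplasmic reticulum, 3 were higher and 10 lower, with a median of -0.37. Xbp1, the spliced factor of that response, had 42.4, 43.8 and 44.9 CPM in the KO POVPC hypoxia libraries, against 126, 127 and 109 CPM in the KO vehicle normoxia libraries (-1.47 ± 0.09), and Pdia4 and Pdia6, disulfide isomerases, fell by 0.93 ± 0.07 and 0.81 ± 0.07. Herpud1, of the degradation branch, and Dnajb9 rose by 1.16 ± 0.08 and 0.94 ± 0.09.

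Of 18 heat shock proteins and cochaperones, cytosolic and mitochondrial, 13 were called higher and 2 lower, with a median of 0.52. Hsp90aa1, the inducible HSP90, had 672, 705 and 716 CPM in the KO POVPC hypoxia libraries, against 234, 233 and 241 CPM in the KO vehicle normoxia libraries (1.56 ± 0.07), and Hsph1 rose by 2.01 ± 0.09. The NRF2 antioxidant list was mixed, 12 of 20 higher and 6 lower. Hmox1, heme oxygenase, had 147, 136 and 167 CPM in the KO POVPC hypoxia libraries, against 33.8, 38.6 and 38.7 CPM in the KO vehicle normoxia libraries (2.02 ± 0.14, adjusted p = 6.78e-12), with every treated library above every untreated one. Slc7a11, the cystine importer, rose by 1.15 ± 0.09, whereas Gclc, the catalytic subunit of glutathione synthesis, fell by 1.12 ± 0.08 and its partner Gclm rose by 0.71 ± 0.10. Gstm1 and Gsta4, glutathione transferases, fell by 2.16 ± 0.12 and 1.95 ± 0.12.

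Extracellular matrix genes fell steeply. Of 28, 25 were called lower, 21 by at least 2-fold, 2 were higher and 1 did not pass, with a median of -2.22. The list summed to 15450 to 20200 CPM in KO POVPC hypoxia libraries, against 65320 to 72970 CPM in KO vehicle normoxia libraries. Col3a1, a fibrillar collagen of the vessel wall, had 10100, 7170 and 8080 CPM in the KO POVPC hypoxia libraries, against 37000, 40500 and 39100 CPM in the KO vehicle normoxia libraries (-2.20 ± 0.18). Col1a2 (chr6:4455697-4491543 in mm9) had 182, 175 and 164 CPM in the KO POVPC hypoxia libraries, against 4700, 6350 and 6360 CPM in the KO vehicle normoxia libraries (-5.06 ± 0.13, adjusted p = 1.36e-22), a far larger gap than that of its partner chain Col1a1 (-2.23 ± 0.20), whose untreated libraries spread from 749 to 1370 CPM. Col8a1, a short-chain collagen of the vessel wall, fell by 5.52 ± 0.12 and Postn, periostin, by 3.73 ± 0.14. Eln, elastin, kept 1 count over the 3 treated libraries, against 216 counts over the untreated ones, which was 220-fold lower with a 95% counting interval of 39.1 to 8736.

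Spp1, osteopontin, and Thbs1, thrombospondin 1, were the matrix genes that rose. Spp1 had 53.2, 120 and 57.2 CPM in the KO POVPC hypoxia libraries, against 7.48, 5.17 and 5.34 CPM in the KO vehicle normoxia libraries (3.69 ± 0.26), with replicate 2 the highest of the treated libraries. Thbs1 had 2360, 1750 and 1890 CPM in the KO POVPC hypoxia libraries, against 690, 908 and 1060 CPM in the KO vehicle normoxia libraries (1.17 ± 0.16), whereas its relative Thbs2 fell by 3.84 ± 0.13. Lox, lysyl oxidase, did not pass (0.05 ± 0.09). P4ha1 and P4ha2, the collagen prolyl hydroxylases on the HIF list, rose by 2.38 ± 0.08 and 2.70 ± 0.08 while the chains they modify fell. Among 18 proteases and inhibitors, 5 were higher and 10 lower, beside 34.6% and 33.3% of all genes. Adamts1, a versican-cleaving protease, rose by 1.41 ± 0.10, and Mmp2, the gelatinase, fell by 1.89 ± 0.15. Timp3, which stays bound to the matrix, had 307, 296 and 274 CPM in the KO POVPC hypoxia libraries, against 883, 889 and 935 CPM in the KO vehicle normoxia libraries (-1.63 ± 0.11). Timp2 was not called (-0.18 ± 0.08), but it passed under 8 of the other settings.

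Markers that separate adventitial fibroblasts from other wall cells fell with the matrix. Of 10, 9 were called lower, all 9 by at least 2-fold, and none higher, with a median of -3.10. Cd34 had 3.78, 3.25 and 3.91 CPM in the KO POVPC hypoxia libraries, against 128, 114 and 112 CPM in the KO vehicle normoxia libraries (-5.01 ± 0.18) and Cd248, endosialin, had 2.74, 2.17 and 2.4 CPM in the KO POVPC hypoxia libraries, against 118, 161 and 182 CPM in the KO vehicle normoxia libraries (-5.97 ± 0.21). For both, every treated library was far below every untreated one. Scara5 fell by 5.04 ± 0.14 and Pdgfra by 3.27 ± 0.11. Dpt, dermatopontin, was not called, at 250 ± 39.5 and 298 ± 27.3 CPM in treated and untreated cells. Of 16 contractile genes tested, 3 were called higher and 10 lower, with a median of -0.62. The list summed to 398 to 490 CPM in KO POVPC hypoxia libraries, against 804 to 850 CPM in KO vehicle normoxia libraries. Acta2 had 32.7, 16.6 and 33 CPM in the KO POVPC hypoxia libraries, against 56, 56.5 and 62.4 CPM in the KO vehicle normoxia libraries (-1.09 ± 0.19), with replicate 2 the lowest. Smtn, smoothelin, fell by 2.05 ± 0.14 and Itga8 by 6.55 ± 0.33. Tagln, SM22 alpha, rose by 0.86 ± 0.17 but stayed below 10 CPM in all 6 libraries. Actg2 and Myh11 were called higher below 1 CPM, and the libraries of Myh11 overlapped, its call being lost under 14 other settings.

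Inflammatory genes were called in both directions, in numbers that say little beside the 34.6% higher and 33.3% lower of all genes. Of 19 cytokine, adhesion and NF-kB feedback genes, 5 were called higher and 8 lower, with a median of -0.13. Cxcl12, the chemokine that holds progenitors in place, had 2590, 2330 and 2100 CPM in the KO POVPC hypoxia libraries, against 708, 748 and 822 CPM in the KO vehicle normoxia libraries (1.62 ± 0.08). Tnfaip3, the A20 feedback inhibitor, rose by 1.82 ± 0.10 and Ptgs2, cyclooxygenase-2, by 1.55 ± 0.12, whereas Nfkbia, another feedback inhibitor, fell by 1.78 ± 0.09. Icam1 fell by 3.45 ± 0.34 from a low level and Cxcl1 by 2.46 ± 0.16, and Vcam1 was not called (-0.08 ± 0.07). Il6 was low, at 0.309 ± 0.127 and 0.296 ± 0.0295 CPM in treated and untreated cells, and was not called. Of 19 interferon-response genes, 3 were higher and 12 lower: Ifit3 had 2.99, 2.85 and 3.2 CPM in the KO POVPC hypoxia libraries, against 21.1, 15.6 and 17.6 CPM in the KO vehicle normoxia libraries (-2.58 ± 0.17), and Ddx58, the RIG-I sensor, fell by 1.03 ± 0.07. Mx1 went against them, at 6.77, 7.18 and 6.93 CPM in treated and 1.08, 0.351 and 0.956 CPM in untreated libraries (3.13 ± 0.36).

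Growth factors and vasoactive ligands were mostly lower. Of 19 growth factors and vasoactive ligands with their receptors, 14 were lower and 2 higher, with a median of -1.77. Hgf, hepatocyte growth factor, stood at 1.29 ± 0.425 CPM in treated and 18.6 ± 2.55 CPM in untreated cells (-3.85 ± 0.20). Angpt2, the TIE2 antagonist, had 17.3, 14 and 16.3 CPM in the KO POVPC hypoxia libraries, against 122, 125 and 127 CPM in the KO vehicle normoxia libraries (-2.98 ± 0.12). Edn1, endothelin-1, and Pdgfa were the ones that rose, by 3.48 ± 0.22 and 1.68 ± 0.09. In the TGF-beta and BMP list 13 of 22 were lower and 5 higher, beside 33.3% and 34.6% of all genes. Ltbp1, which stores latent TGF-beta in the matrix, fell by 3.14 ± 0.10. Ctgf, a downstream matricellular gene, had 297, 280 and 278 CPM in the KO POVPC hypoxia libraries, against 59.9, 77.6 and 80.6 CPM in the KO vehicle normoxia libraries (1.97 ± 0.11). Of 22 migration and guidance genes, 13 were lower and 6 higher, beside the same shares. Nrp2, a co-receptor for semaphorins and VEGFs, had 21.2, 22 and 17.7 CPM in the KO POVPC hypoxia libraries, against 475, 511 and 590 CPM in the KO vehicle normoxia libraries (-4.69 ± 0.15), and Epha4 rose by 1.51 ± 0.08.

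Immediate early and Krüppel-like factors were higher in 12 of 20 cases and lower in 4. Myc had 112, 97.9 and 107 CPM in the KO POVPC hypoxia libraries, against 21, 24.4 and 30.8 CPM in the KO vehicle normoxia libraries (2.05 ± 0.13), and Klf6 rose by 1.79 ± 0.07 and Klf4 by 0.87 ± 0.09. Jun and Fosl2 fell by 1.00 ± 0.09 and 1.18 ± 0.09. Of 18 autophagy and mitophagy genes, 7 were higher and 5 lower, with a median of 0.00, near the 34.6% and 33.3% of all genes. Sqstm1, the p62 cargo receptor, and Map1lc3b rose by 1.12 ± 0.08 and 1.11 ± 0.07, and Park2, parkin, fell by 4.02 ± 0.53, at 0.132 ± 0.0783 CPM in treated and 2.21 ± 0.275 CPM in untreated cells. Oxygen-dependent demethylases were higher in 7 of 17 cases and lower in 3, also near these shares. Kdm4b rose to 122 ± 7.21 CPM, against 43.2 ± 4.06 CPM in untreated cells, and Kdm6b by 1.44 ± 0.18. Of 10 osteochondrogenic genes tested, 2 were higher and 4 lower, beside 34.6% and 33.3% of all genes. Runx2 was not called (-0.04 ± 0.14), and Sox9 fell by 0.38 ± 0.11 with overlapping libraries.

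Many of the largest changes lay outside these lists. Sprr1a, a small proline-rich protein of stressed epithelia and heart muscle, had 1060, 822 and 728 CPM in the KO POVPC hypoxia libraries, against 2.05, 5.52 and 6.21 CPM in the KO vehicle normoxia libraries, which is 186-fold (7.54 ± 0.43, adjusted p = 5.34e-11). Mt2, a metallothionein, had 765, 671 and 753 CPM in the KO POVPC hypoxia libraries, against 9.79, 13.6 and 17 CPM in the KO vehicle normoxia libraries (5.75 ± 0.34). Both were chosen among genes with non-overlapping libraries, so that separation is no added result. Their untreated libraries spread widely among themselves. Gpr35, a G protein-coupled receptor, stood at 29.9 ± 4.44 CPM in treated and 0.143 ± 0.0834 CPM in untreated cells (7.61 ± 0.34). Fat2, a large protocadherin, had 845 counts over the treated and 2 over the untreated libraries, 415-fold with a counting interval of 114 to 3428. Cyp17a1, the steroid 17-hydroxylase, averaged 19.8 and 0.241 CPM in treated and untreated cells, and Mcpt2, a mast cell protease, 10.4 and 0.0976 CPM. Fam180a, Tmem132b and Smtnl2 rose by 5.18, 5.16 and 4.39. The unnamed transcript 2610528A11Rik, chosen after its values were seen, had the largest rise of all genes above 10 CPM in treated cells (log2 fold change 10.74, 312 and 0.17 CPM on average in treated and untreated cells).

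Among the largest falls, Pi15 (chr1:17591982-17621020 in mm9), a secreted peptidase inhibitor, had 3.11, 2.35 and 1.96 CPM in the KO POVPC hypoxia libraries, against 454, 421 and 410 CPM in the KO vehicle normoxia libraries (-7.43 ± 0.19, adjusted p = 2.56e-19). Wisp2, a CCN family protein, had 2.03, 1.54 and 1.51 CPM in the KO POVPC hypoxia libraries, against 330, 292 and 246 CPM in the KO vehicle normoxia libraries (-7.41 ± 0.17). These 2 genes were also chosen among those with non-overlapping libraries. Lum, the proteoglycan lumican, fell by 6.71 ± 0.18 and Fmod, fibromodulin, by 6.02 ± 0.34. Kcnh2, the hERG potassium channel, had 2 counts over the treated and 1129 over the untreated libraries, 575-fold lower with a counting interval of 159 to 4757. Cacna1g, a T-type calcium channel, averaged 0.861 CPM in treated and 49 CPM in untreated cells, and Pde1a, a cyclic nucleotide phosphodiesterase, 0.112 and 13 CPM. Ptpn5, Ggt5, Vtcn1, Gpr165 and Islr fell by 5.77 to 8.23 on the log2 scale.

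How much POVPC added was read from KO POVPC hypoxia against KO vehicle hypoxia. There 588 genes were called (4.06%), 285 higher (1.97%) and 303 lower (2.09%), and 60 (0.414%) differed by at least 2-fold, 48 higher (0.331%) and 12 lower (0.0828%). Hypoxia at constant POVPC, KO POVPC hypoxia against KO POVPC normoxia, called 9924 genes (68.5%), 5003 higher (34.5%) and 4921 lower (33.9%). Of these, 4250 (29.3%) differed by at least 2-fold, 1777 higher (12.3%) and 2473 lower (17.1%). These comparisons share libraries with the joint one and with each other, so their values are set side by side only. The count of 588 depended on single libraries: it was 269 without KO vehicle hypoxia replicate 2, 374 without KO vehicle hypoxia replicate 3 and 300 without KO POVPC hypoxia replicate 3. The near-even split did so too: 48.5% of the calls were higher, against 78.3% of 341 with library size alone, 36.7% of 532 without KO POVPC hypoxia replicate 1, 37.7% without KO vehicle hypoxia replicate 3, 37.1% of 623 without the libraries richest in Rn45s and 38.4% of 440 without the 3 shallowest culture libraries.

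Immediate early and heat shock genes were among those higher with POVPC under hypoxia. Of the 20 immediate early and Krüppel-like factors, 7 were higher with POVPC than with vehicle under hypoxia and none was lower, and of 18 heat shock genes 5 were higher and none lower, beside 1.97% of all genes called higher. Klf2, a factor known for its endothelial protective role, had 8.18, 6.14 and 8.98 CPM with POVPC in hypoxia, against 2.45, 1.43 and 2.65 CPM with vehicle in hypoxia (1.88 ± 0.28, adjusted p = 0.000177). The libraries of the groups did not overlap. Its level in KO vehicle normoxia was 2.68 ± 0.773 CPM. Hspa1b, an inducible HSP70, had 51, 63.1 and 64.6 CPM with POVPC, against 38.2, 29.1 and 29.2 CPM with vehicle in hypoxia (0.88 ± 0.11), and Hspb1, HSP27, had 11.2, 14.3 and 13.1 CPM against 5.48, 3.53 and 6.11 CPM (1.39 ± 0.16). Hmox1 was at 150 ± 15.3 CPM with POVPC and 73.6 ± 19.1 CPM with vehicle under hypoxia (1.02 ± 0.13). Smad7, an inhibitor of TGF-beta signals, differed by 0.88 ± 0.13 and Ptgs2 by 0.83 ± 0.12.

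Among the genes with the largest POVPC rises under hypoxia, Etv4, an ETS family factor, had 3.74, 8.22 and 4.4 CPM with POVPC in hypoxia, against 1.64, 1.48 and 2.24 CPM with vehicle in hypoxia (1.66 ± 0.30). Efr3b had 3.86, 8.45 and 5.96 CPM with POVPC, against 2.87, 0.858 and 0.917 CPM with vehicle in hypoxia (1.87 ± 0.34), and Fxyd5, a subunit of the sodium pump, had 5.77, 13.4 and 9.24 CPM against 2.87, 3.53 and 3.46 CPM (1.54 ± 0.27). In all 3 genes replicate 2 of the POVPC group was the highest, and the groups did not overlap. On the lower side were Tagln (-0.84 ± 0.16), Postn (-0.78 ± 0.13), Abca1 (-0.72 ± 0.13) and Trf, transferrin (-1.31 ± 0.35). Upk3b, Tnfsf15, Islr and Clca1 were the others with the largest falls, at -1.18, -1.15, -1.15 and -1.13. Matrix genes were lower in 5 of 28 cases and higher in 1, beside 2.09% and 1.97% of all genes. Cholesterol genes, at a median of 0.26, were called higher in 1 of 21 cases and glycolysis genes, at 0.16, in 1 of 22.

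**Figure D4:**
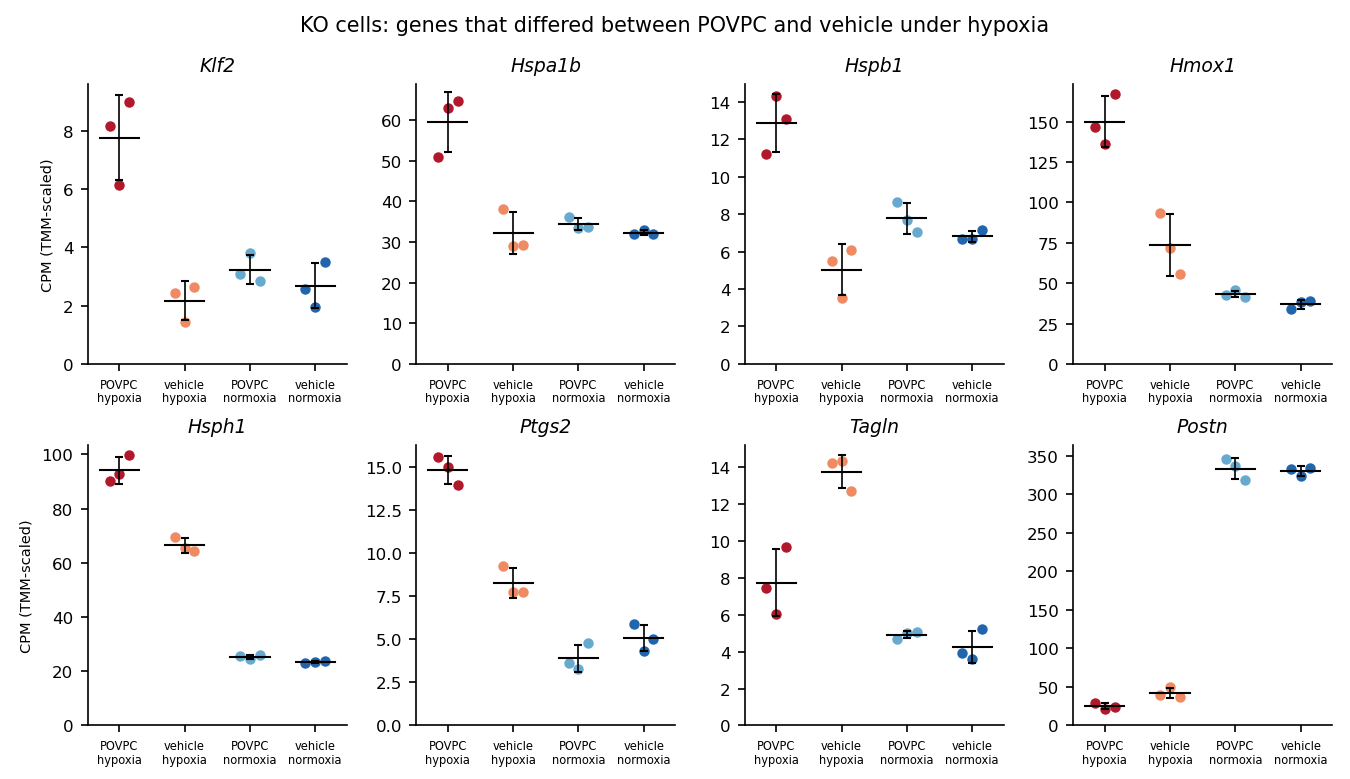
Each panel shows 1 gene in the 4 KO groups, with points for single libraries, a bar at the mean and whiskers of 1 SD, as CPM on a linear axis from 0. Klf2, Hspa1b, Hspb1, Hmox1, Hsph1 and Ptgs2 were higher, and Tagln and Postn lower, with POVPC than with vehicle under hypoxia; in normoxia the points of POVPC and vehicle lie closer together.

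Whether the joint effect equalled the sum of the single effects was tested as an interaction. It was called for 93 genes (0.642%), 41 higher and 52 lower than the sum, and 19 (0.131%) by at least 2-fold, 13 higher (0.0897%) and 6 lower (0.0414%). Among the largest upward departures were Efr3b (2.10 ± 0.46), Kcnn4, a calcium-activated potassium channel (1.60 ± 0.28), Grem1, a BMP antagonist (1.45 ± 0.25), and Tuba4a, an alpha tubulin (1.26 ± 0.29). Of the list genes, Ptgs2 departed upwards by 1.21 ± 0.18. Hspb1 departed upwards by 1.20 ± 0.23, Ier2, an immediate early gene, by 0.81 ± 0.15, and Hspa1b by 0.79 ± 0.16. Atf3 and Ndrg1 departed by 1.15 ± 0.15 and 0.68 ± 0.12. Below the sum were Islr (-1.22 ± 0.28), Clca1 (-1.18 ± 0.17), Clca2 (-1.08 ± 0.15) and Tagln (-1.04 ± 0.23). This count moved with the libraries and the scaling: it was 170 without KO POVPC hypoxia replicate 1, 149 without KO vehicle normoxia replicate 3, 48 without KO vehicle hypoxia replicate 2 or without KO POVPC normoxia replicate 1, and 30 when library size alone set the scale. It was 51 without KO POVPC hypoxia replicate 3, 59 and 57 without KO POVPC normoxia replicates 2 and 3, and 61 without KO vehicle normoxia replicate 2. It was 414 without the libraries richest in Rn45s and 270 with DESeq2. The share of these calls above the sum was 44.1%, and it was 26.3% without the libraries richest in Rn45s, 36.7% with DESeq2, 70% with library size alone and between 30% and 55.7% with single libraries left out, so no balance of direction is read from it. The calls of Tuba4a, Islr and Tagln were each lost under at least 10 other settings.

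WT cells given the same joint treatment changed about as many genes. Of 14496, 9859 (68%) were called, 4713 higher (32.5%) and 5146 lower (35.5%), and 4272 (29.5%) differed by at least 2-fold. Of the 1733 genes that rose by at least 2-fold in KO cells, 960 (55.4%) also did so in WT cells, where 1733 genes passed as well, and 48 (2.77%) fell by 2-fold there. Of the 2415 that fell in KO cells, 1525 (63.1%) also fell in WT cells, which is 60.1% of the 2539 WT genes. The difference between the responses was called for 5495 genes (37.9%), 2915 more positive in KO cells (20.1%) and 2580 more negative (17.8%). The balance depended on the scaling and on the libraries. Of these calls, 53% were more positive in KO cells with TMM, 46.5% with RLE factors and 45.6% with DESeq2. With library size alone it was 72.7% of 5607, and the median difference over all genes was 0.25, against 0.05 with TMM. The share lay between 44.9% (without KO POVPC hypoxia replicate 1) and 54.5% (without WT POVPC hypoxia replicate 3) with single libraries left out. Without the 3 shallowest culture libraries it was 43.6%. The count of 5495 was 4828 to 5881 with single libraries left out, and 4636 to 5696 under the other settings. In WT cells alone, library size alone gave 34.8% of calls higher, against 47.8% with TMM. Differences between the responses of at least 2-fold were called more positive in KO cells for 957 genes (6.6%) and more negative for 1017 (7.02%). Each line stands for 1 genotype, so genotype and line cannot be told apart in these differences.

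Glycolysis genes rose in both genotypes, and mitotic genes fell further in KO cells. The glycolysis median was 3.12 in KO and 3.30 in WT cells, and the difference was called for 12 of 22 genes, 5 more positive and 7 more negative in KO cells. The mitosis median was -2.39 in KO and -0.86 in WT cells, and the change was more negative in KO cells for 14 of 18 members. In WT cells 11 of the 18 were called lower and 2 higher. Mki67 differed by -2.60 ± 0.31 (-3.94 in KO and -1.34 in WT cells, adjusted p = 8.91e-08). Cholesterol genes rose less in KO than in WT cells in 17 of 21 cases, with medians of 2.89 and 3.96: Idi1 rose by 4.00 in KO and 5.45 in WT cells, a difference of -1.45 ± 0.18. For NRF2 targets the change was more negative in KO cells in 17 of 20 cases, with medians of 0.39 in KO and 1.09 in WT cells. The summed levels of the treated libraries were alike, at 4435 to 4731 CPM in KO and 4090 to 4829 CPM in WT cells. In untreated libraries they were 4247 to 4339 CPM in KO and 2123 to 2231 CPM in WT cells. Slc7a11 was at 1.15 in KO and 5.17 in WT cells (-4.03 ± 0.14), and Gclc fell in KO cells and rose in WT cells (-1.12 and 1.20, difference -2.33 ± 0.12). The change was also more negative in KO cells for 14 of 20 ATF4 genes and for 12 of 20 immediate early and Krüppel-like factors. The immediate early list summed to 1430 to 1689 CPM in untreated KO and 659 to 691 CPM in untreated WT libraries. In treated libraries it summed to 2056 to 2201 CPM in KO and 1842 to 1981 CPM in WT cells. Over all genes, 17.8% were called more negative and 20.1% more positive in KO cells.

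Contractile genes fell less in KO cells. Their median was -0.62 in KO and -2.27 in WT cells. Of 16, 8 differed upwards and 1 downwards, beside 20.1% and 17.8% of all genes. Their summed levels in treated libraries were 398 to 490 CPM in KO and 331 to 402 CPM in WT cells. In untreated libraries they were 804 to 850 CPM in KO and 1897 to 1955 CPM in WT cells. Acta2 changed by -1.09 ± 0.19 in KO and -3.77 ± 0.21 in WT cells (difference 2.68 ± 0.28, adjusted p = 3.25e-07), from 58.3 ± 3.57 CPM in KO and 263 ± 25.7 CPM in WT untreated cells. Cald1, caldesmon, changed by -0.47 in KO and -3.61 in WT cells. The matrix list fell in both, with medians of -2.22 and -2.63. Adamts1 and Adamts5 rose in KO cells and fell in WT cells, with differences of 3.81 ± 0.14 and 4.24 ± 0.14. Cxcl12 rose by 1.62 in KO cells and fell by 0.82 in WT cells, a difference of 2.44 ± 0.11. Timp1 and Icam1 went the other way, falling in KO cells (-1.87 and -3.45) and rising in WT cells, with differences of -4.03 ± 0.23 and -4.84 ± 0.54. Adventitial fibroblast markers had medians of -3.10 in KO and -2.31 in WT cells. In WT cells 5 of 10 were called lower and 2 higher, and the difference was called more positive in KO cells for 4 and more negative for 5. Their sum was 695 to 774 CPM in KO POVPC hypoxia and 3893 to 4510 CPM in KO vehicle normoxia, and 231 to 321 CPM in WT POVPC hypoxia and 4737 to 4791 CPM in WT vehicle normoxia. Dcn fell further in WT cells (-2.94 in KO and -4.35 in WT cells, difference 1.41 ± 0.12). Ly6a went the other way, at -2.39 in KO and 1.95 in WT cells (difference -4.34 ± 0.17), and Cd34 fell in KO cells (-5.01) and did not pass in WT cells (-0.26, difference -4.75 ± 0.41).

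**Figure D5:**
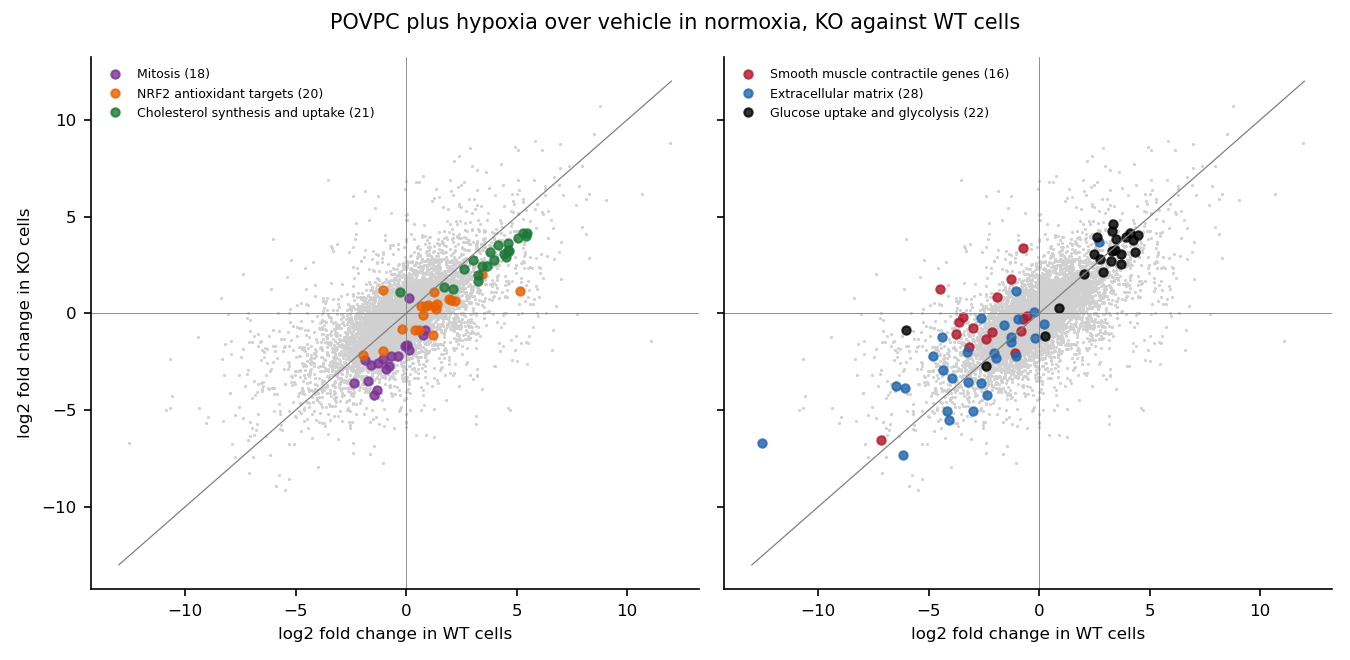
Each grey point is a tested gene, with its log2 fold change under POVPC plus hypoxia over vehicle in normoxia in WT cells on the horizontal axis and in KO cells on the vertical axis, and the diagonal marks equal change. Most mitosis, NRF2 and cholesterol genes (left) lie below the diagonal and contractile genes (right) mostly above it. Lum, at the far left with -12.54 in WT cells, had 0 counts in the treated WT libraries, so its position depends on the prior count.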

How the data were processed

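Gene counts were deposited by the authors for 24 culture libraries, 3 in each of 8 groups. The file header names featureCounts 1.4.4, run over exons of an mm9 annotation without a strand setting, so that overlapping genes cannot be told apart. Reads mapping to several places were not counted, which lowers genes with near-identical copies. Libraries were grouped by title. The counts were tested with edgeR 4.0.16 (limma 3.58.1, R 4.3.3): TMM scaling, filterByExpr with a minimum count of 10, robust quasi-likelihood F tests in 1 model of 8 groups, and Benjamini-Hochberg adjustment over 14496 of 23284 genes. The groups differed by contrasts within that model, and DESeq2 1.42.0 was an alternative. CPM values are TMM-scaled. On simulated data with 200 changed genes the test was checked before use. Counting intervals are exact 95% intervals and cover counting error only, as does the floor of 3 counts. Named genes were the 14 largest changes each way among called genes with at least 5 CPM and non-overlapping libraries, predicted, unnamed and non-coding genes left out, up to 5 members of each of 25 lists with the smallest p and list members with the highest level or against the majority, the 6 largest differences between KO and WT responses each way, and the 5 largest changes each way in the other comparisons. Members, lists and alternatives were chosen with earlier results of these data known. The other samples of the series were not analysed here. A few genes that the rule named are not reported here.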

Additional observations from a re-analysis of the deposited data

Results flagged for a closer look

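The joint response differed between the genotypes for the genes below, by the interaction of genotype and treatment in edgeR (KO response minus WT response, log2). Among genes with at least 5 CPM in 1 of the 4 groups, Cntnap2 (8.31 ± 1.77), Mme (7.97 ± 1.24), Rorb (7.31 ± 1.11), Olfml2a (6.31 ± 1.86) and Fxyd1 (5.89 ± 1.36) were among those with the largest positive differences, all with adjusted p under 0.05. Kng1 (-12.52 ± 2.02), Psca (-8.52 ± 0.85), Nppc (-7.21 ± 1.79), Kng2 (-6.19 ± 0.85), Cd74 (-6.15 ± 1.57) and Kif5c (-6.06 ± 0.45) had the largest negative ones.

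Kif5c, a neuronal kinesin, averaged 4.05 ± 0.74 CPM in KO POVPC hypoxia and 12.9 ± 1.38 CPM in KO vehicle normoxia, and 3.98 and 0.181 CPM in the same WT groups. Mme, neprilysin, averaged 0.131 and 0.0146 CPM in the KO groups and 0.256 and 11.4 CPM in the WT groups. For Mme the KO levels were low in both groups and the WT level fell. Rorb averaged 0.351 CPM in KO POVPC hypoxia and had 0 counts in KO vehicle normoxia, and averaged 6.98 and 17.1 CPM in the WT groups.

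Kng1 averaged 0.0301 and 0.0926 CPM in the KO groups and 11.2 CPM in treated WT cells, with 0 counts in untreated WT cells. Kng2, its neighbour in the kininogen family, averaged 0.0869 and 0.199 CPM in the KO groups and 6.7 and 0.211 CPM in the WT groups. The 2 kininogen genes are close copies, so their counts are uncertain. Psca averaged 2.82 and 10.5 CPM in the KO groups and 0.54 CPM in treated WT cells, with 0 in untreated WT cells. Cntnap2, Olfml2a and Fxyd1 had 0 counts in treated WT cells and averaged 8.92, 8.21 and 9.97 CPM in untreated WT cells. In the KO groups they averaged 0.0748, 0.0869 and 0.378 CPM in KO POVPC hypoxia and 0.41, 1.75 and 12 CPM in KO vehicle normoxia. Where a group had 0 counts the fitted difference depends on the prior count and is no bound.

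Nppc averaged 0.0554 and 5.04 CPM in the KO groups and 0.168 and 0.0636 CPM in the WT groups. Cd74, an antigen presentation chaperone, averaged 0.262 and 3.64 CPM in the KO groups and 7.06 and 1.15 CPM in the WT groups, where 1 treated library carried most of the level (0.378, 20.5 and 0.313 CPM).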

How the results depend on the processing

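The joint response of KO cells was called for 9851 genes, and for 8459 to 10106 genes under the other scalings, filters, tools and sets of libraries tried, with 9293 to 9509 when each library of the compared groups was left out in turn. With replicate number as a block it was called for 9789 genes. Deviations of same-numbered libraries from their group means correlated at -0.239, 0.077 and -0.116, and those of different-numbered ones at -0.234 to 0.325. With 3 libraries in each compared group, such correlations cannot tell whether the numbers mark a shared batch. POVPC under hypoxia (588) depended on the setting: 341 with library size alone, 990 with DESeq2, and 269 to 532 with single libraries left out. The departure from additivity (93) moved to 30 with library size alone, 270 with DESeq2 and 414 without the libraries richest in Rn45s of each compared group, and lay between 48 and 170 with single libraries left out. Their counts with the replicate block were 549 and 99. Leaving out libraries rich in Rn45s, and leaving out the 3 shallowest culture libraries, were chosen after seeing the data. Of the named genes' values under other settings, 4294 kept direction and call, 131 lost the call, 8 (all Timp2) gained it and 1 reversed: Loxl2, which was not called, was at -0.011 without KO POVPC hypoxia replicate 1 and lay between -0.011 and 0.189 over the libraries left out. The causes were not tested. At this depth, genes under a few counts per library give no fold change that can be relied on.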
